A study of Mus musculus with 4 samples.

Results

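Myelin is the lipid-rich sheath that oligodendrocytes wrap around axons, and it is what lets axons of the central nervous system conduct fast. Its compact layers are held together by myelin basic protein on the cytoplasmic side, while other proteins sit at the edge of the sheath, seal its turns or join it to the axon. In area CA1 of the hippocampus the pyramidal cell layers hold little myelin, and the alveus, the fibre sheet that runs along the region, holds much. A group of 7 genes of this sheath and of the cells that make it was followed through every probe set that the array carries for them: Mbp, Mobp, Mag, Mog, Cldn11, Gjb1 and Ugt8a. They were taken as the probe sets whose annotation gives exactly 1 gene symbol, that symbol being 1 of these 7, which gave 13 of the 12422 probe sets that are not array controls, for 7 of 8251 named genes. Mobp has 4 of them, Mbp, Mag and Cldn11 have 2 each, and Mog, Gjb1 and Ugt8a have 1 each.

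The samples were 4 arrays of total RNA from CA1 of C57BL/6J mice, an inbred laboratory strain, all young males. All 4 were controls that had been handled and not otherwise treated, and 1 was taken at each of 1, 2, 4 and 6 hours after other mice of the experiment had received their last shock. The shocked mice were not analysed here. The labels give no ages in weeks and leave unsaid whether RNA came from single or pooled mice, so the p-values below measure the spread between these samples, and time, animal, dissection and array cannot be told apart. Their number limits the precision. In bulk RNA, fewer oligodendrocytes and less RNA per oligodendrocyte cannot be told apart either.

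The 1-hour sample stood apart in several measures. The signal at the 3' end of Gapdh over that at its 5' end, a sign of RNA or cDNA integrity, was 4.52 in it and 1.18, 1.37 and 1.20 in the 2-, 4- and 6-hour samples. The same ratio for beta-actin was 2.34 against 2.00, 1.80 and 1.76. The summed signal of 4 choroid plexus markers was 3203 there and 895 to 1208 in the others. Most of that was Ttr, at 2246 against 199, 353 and 143. The other 3 (Kl, Igfbp2 and Calml4) summed to 957 against 769, 855 and 752, and Igfbp2 was higher at 2 and 4 hours than at 1 hour. Of 4 CA1 pyramidal markers on the array, 3 (Wfs1, Pou3f1 and Neurod6) were above the floor of 35.1 in all samples, with sums over the 4 of 3732 to 4389, while Camk2a was listed at 29.7 to 94.9. Of 8 oligodendrocyte markers, 7 were above the floor in all samples, and Cnp, an enzyme of non-compact myelin, was listed below it in all of them at 22.1 to 29.1. Each difference of the 1-hour sample below stands beside these ratios and the Ttr signal, whose part in it was not tested.

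Mobp encodes a small basic protein of compact myelin, and its probe sets gave different profiles. In the order 1, 2, 4 and 6 hours, the deposited signal of 100536_at was 11695, 8172, 9384 and 10648. That of 99047_at was 1500, 4569, 3256 and 5525, that of 99048_g_at 322, 1802, 980 and 2031, and that of 99046_at 480, 1016, 881 and 1173. The 1-hour sample was thus the highest for the first of these and the lowest for the other 3, all of which ran in the order 1, 4, 2 and 6 hours from low to high. The largest signal over the smallest was 6.31 for 99048_g_at, 3.68 for 99047_at, 2.44 for 99046_at and 1.43 for 100536_at. The annotation names the same source sequence for 99047_at and 99048_g_at, so they are not independent readings, and which of the gene's splice forms each probe set detects was not used here.

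**Figure D1:**
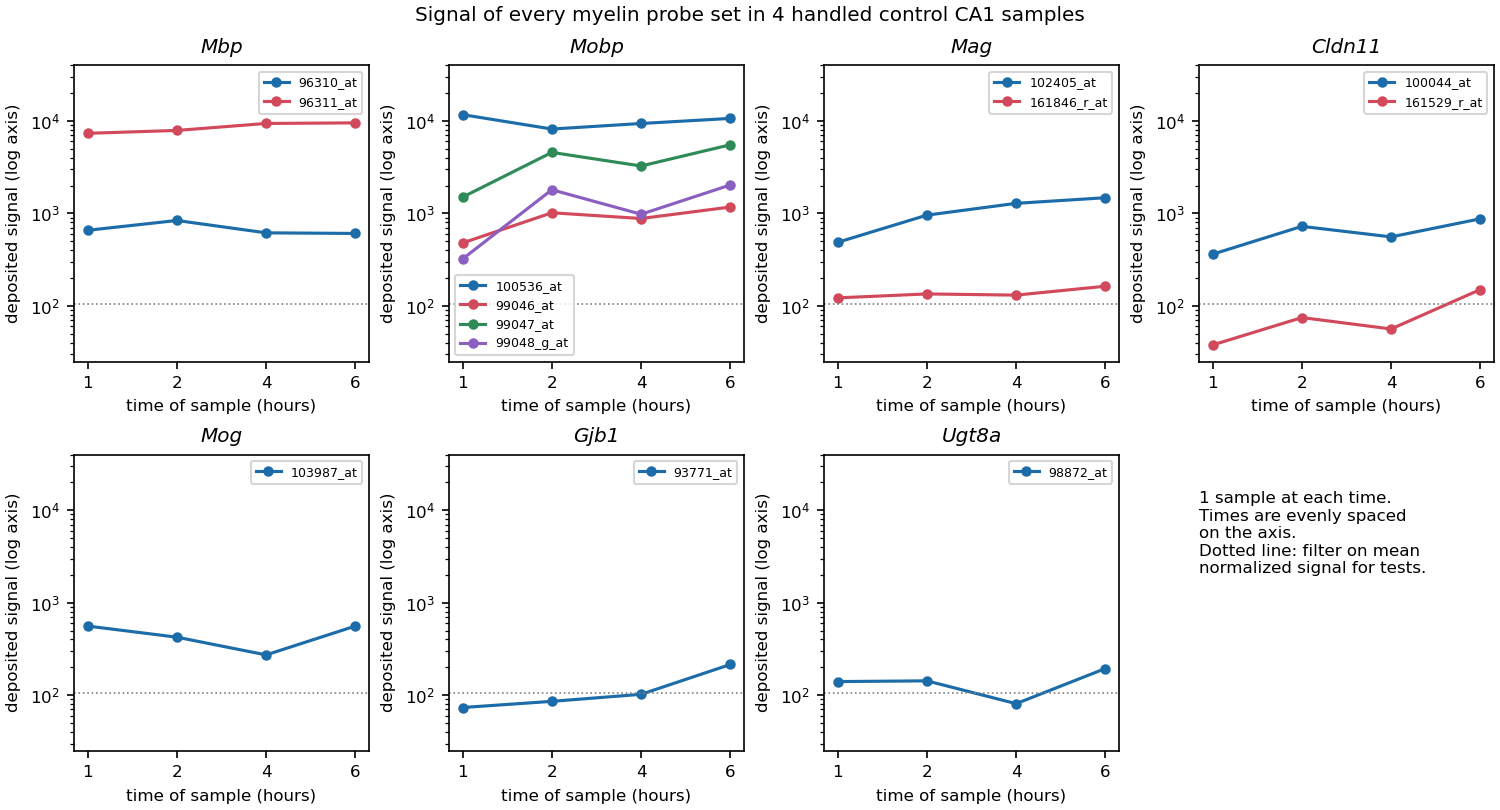
Deposited signal (log axis) of each of the 13 probe sets in the 4 handled control samples, 1 sample at each time, with lines only joining the samples and the dotted line at the filter for tests (104.6, applied to the mean normalized signal). For Mobp, 3 probe sets were lowest at 1 hour and 100536_at was highest there (11695), and the single Gjb1 probe set was highest at 6 hours (215).

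On the log2 scale after quantile normalization, each sample was set against the mean of the other 3. For the 1-hour sample, 99048_g_at lay at -2.24 (SE 0.38), 99047_at at -1.55 (SE 0.27) and 99046_at at -1.03 (SE 0.21), while 100536_at lay at 0.14 (SE 0.15). A limma fit of this contrast over all tested probe sets, with Benjamini-Hochberg adjustment, gave adjusted p = 0.0273 and 0.0306 for 99048_g_at and 99047_at, 0.0558 for 99046_at and 0.675 for 100536_at. The fit takes its spread from the other 3 samples and assumes that the lone array varies like them, so it says how far the 1-hour array lay from the others and is no test of the 1-hour time. Among the 12 member probe sets that were tested these 2 were called, both lower, against 2.35% of all 7453 tested probe sets. With no intensity trend in the variance prior, with no filter on low values or with the floor raised to the 40th percentile, 0 members were called. Without the 2-hour sample 1 was called, which was Mag, and on the values as deposited 4 were, against 87 and 272 of all 7453.

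Because the sets of Mobp run together except for 100536_at, the sequence before the gene's start is shown, with those of Mag and Cldn11, whose brighter probe sets were also lowest at 1 hour and highest at 6 hours. Of the 7 genes, 6 have an entry in the RefSeq promoter table of GRCm38.p6, and Mbp has none. The Gjb1 probe set and 96311_at of Mbp were lowest and highest in the same samples too, and the Gjb1 sequence is not shown. Each sequence is the 250 bases before the outermost start listed for the gene, 5′ to 3′ on the gene's strand. Capitals mark ACAAAG or its reverse complement CTTTGT, the core that SOX proteins bind, a family whose member Sox10 is needed for oligodendrocytes to make myelin.
Mobp: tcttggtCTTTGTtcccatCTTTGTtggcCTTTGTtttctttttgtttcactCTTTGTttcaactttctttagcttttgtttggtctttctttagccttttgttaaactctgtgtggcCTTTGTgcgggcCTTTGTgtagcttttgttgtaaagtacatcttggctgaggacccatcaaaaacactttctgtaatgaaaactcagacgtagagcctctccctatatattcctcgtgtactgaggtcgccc
Mag: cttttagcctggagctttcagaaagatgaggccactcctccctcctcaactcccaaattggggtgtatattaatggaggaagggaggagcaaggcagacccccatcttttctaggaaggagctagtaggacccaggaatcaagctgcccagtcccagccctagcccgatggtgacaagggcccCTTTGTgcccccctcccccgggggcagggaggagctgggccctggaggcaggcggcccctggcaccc
Cldn11: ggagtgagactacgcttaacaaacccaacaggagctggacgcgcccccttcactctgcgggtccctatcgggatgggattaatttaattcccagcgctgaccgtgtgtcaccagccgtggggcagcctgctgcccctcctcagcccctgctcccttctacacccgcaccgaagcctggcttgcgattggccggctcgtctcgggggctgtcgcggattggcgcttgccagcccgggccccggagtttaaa
The Mobp window lies at chr9:120149492-120149741 on the plus strand, that of Mag at chr7:30914923-30915172 on the minus strand and that of Cldn11 at chr3:31149670-31149919 on the plus strand. The Mobp window held 6 matches, counted on both strands and none overlapping another. Of 32851 windows of the same length in the table, 16.5% held at least 1 match, and 1, that of Mobp itself, held 6 or more. The cut of 6 is the Mobp count, so that window had to pass it. Mag and Gjb1 held 1 match each, and Mog, Cldn11 and Ugt8a held 0. A match is a run of letters and no measured site, and the table lists 1 start for Mobp, so no probe set is tied to a start of its own. The signal of Sox10 was 1247, 815, 1302 and 960 in the order of hours, and its link to the Mobp profiles was not tested.

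Mag, myelin-associated glycoprotein, is an adhesion molecule of the innermost myelin layer that faces the axon. Its probe set 102405_at had 487, 958, 1285 and 1478 in the order of hours, a 3.04-fold spread in which each later sample was higher. The 1-hour sample lay at -1.27 (SE 0.26, adjusted p = 0.0546 by limma), and the call was made on the values as deposited (adjusted p = 0.0225) and with equal medians (0.0348). The other Mag probe set, 161846_r_at, was dim and nearly level, with 122, 135, 131 and 163. Its 1-hour difference was -0.22 (SE 0.44). The letter r in its name marks a probe set for which some of the array's probe selection rules were relaxed.

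Cldn11, or oligodendrocyte-specific protein, forms the tight junctions that seal the turns of the sheath. Both its probe sets ran in the same order of samples. The signal of 100044_at was 362, 725, 557 and 875, and that of 161529_r_at was 37.8, 74.8, 56.3 and 150 in the order of hours. The 1-hour sample was lowest and the 6-hour sample highest in both. For 100044_at the 1-hour difference was -0.93 (SE 0.27, adjusted p = 0.145) and the 6-hour difference 0.71 (SE 0.39, adjusted p = 0.999). The dim probe set did not pass the filter on low values, so it has no test. Its differences were -1.20 at 1 hour (SD of the other 3, 0.73) and 1.49 at 6 hours (SD 0.48).

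Mbp, the basic protein that holds the cytoplasmic faces of compact myelin together, varied less. The signal of 96311_at was 7347, 7892, 9392 and 9529, and each later sample was higher, with a spread of 1.30-fold. The signal of 96310_at was 657, 839, 617 and 607, with the 2-hour sample highest and a spread of 1.38-fold. The 1-hour differences were -0.34 (SE 0.13, adjusted p = 0.237) and -0.01 (SE 0.25, adjusted p = 0.995). The sets thus differed in which sample was lowest, the 1-hour sample for the first and the 6-hour sample for the second, but within small ranges.

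Mog, Ugt8a and Gjb1 have 1 probe set each. Mog, a glycoprotein on the outer surface of the sheath, had 559, 424, 272 and 559, with the 4-hour sample lowest at -0.89 (SE 0.30, limma adjusted p = 0.9999). Ugt8a, the enzyme that makes galactosylceramide, the main glycolipid of myelin, had 140, 143, 80.9 and 194, again lowest at 4 hours, at -0.89 (SE 0.48). Gjb1, a connexin, forms gap junctions between layers of the sheath, and had 73.5, 85.7, 102 and 215, the same order of samples as 102405_at of Mag and 96311_at of Mbp. Its 6-hour difference was 1.31 (SE 0.55, adjusted p = 0.999). Gjb1 passed the filter only through its 6-hour value, and it did not pass without that sample, so its spread had to be wide.

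**Figure D2:**
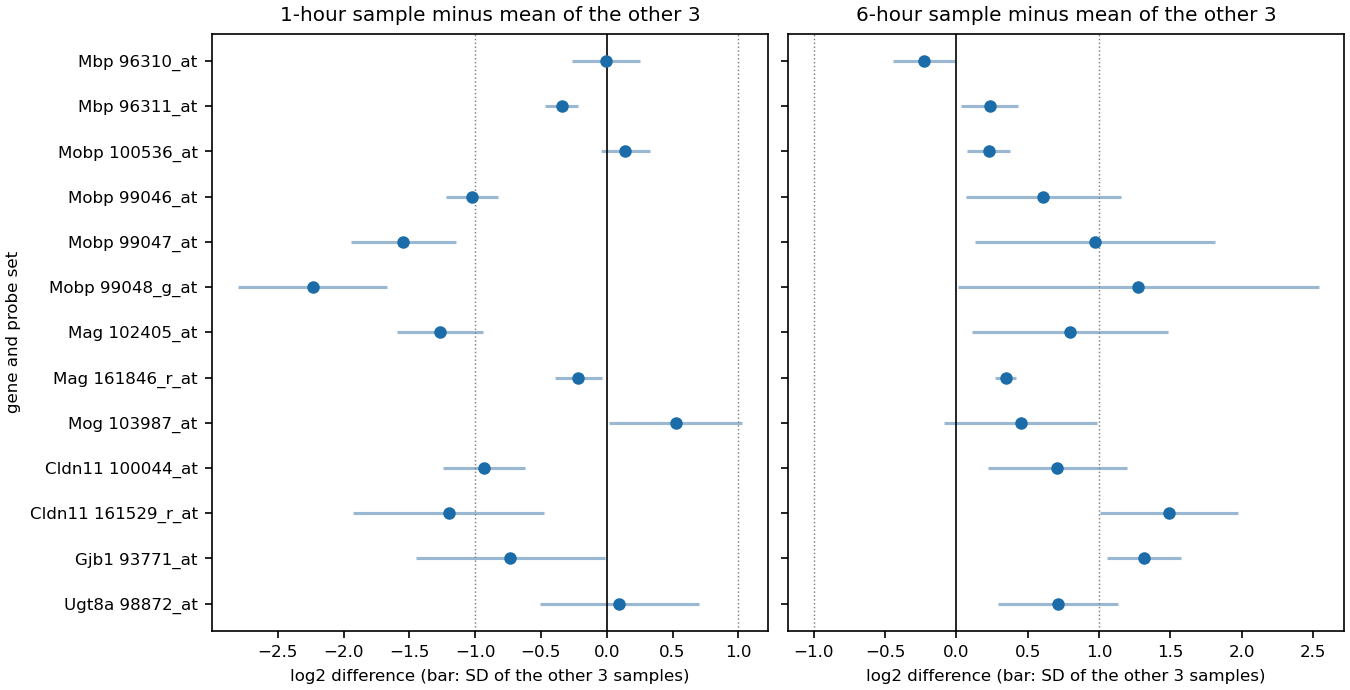
Log2 difference of the 1-hour sample (left) and of the 6-hour sample (right) from the mean of the other 3, for each member probe set, with bars for the SD of those 3 and dotted lines at 2-fold. At 1 hour 99048_g_at of Mobp lay furthest down (-2.24) while 100536_at lay at 0.14, and at 6 hours 96310_at of Mbp (-0.23) was the member below 0.

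Read over the 12 tested members, the 1-hour sample was 2-fold or more lower for 4, against 4.56% of all tested probe sets, and 2-fold or more higher for 0, against 1.78%. It was higher by any amount for 3 of 12, against 54.7%, and 6 of 12 had an unadjusted p under 0.05 in the limma fit, against 15.8%. The 4 are the 3 Mobp sets and the brighter Mag set. The median 1-hour difference was -0.54 for the members and 0.05 for all tested probe sets. In the 6-hour sample the median was 0.66, against 0.00 for all, and 11 of 12 were higher than the mean of the other 3, against 50% of all. The 6-hour sample was 2-fold or more higher for 2 members, 99048_g_at and Gjb1, against 1.49%, and the highest of the 4 samples for 10 of 12, against 20.8%. For 100536_at that rank holds after normalization only, since its deposited signal was highest at 1 hour. Without the 1-hour sample, 11 of 12 were again higher at 6 hours than the mean of the remaining 2, against 50.4% of all. Over the 2-, 4- and 6-hour samples alone, 4 of 12 had a range of 2-fold or more, against 9.04%, with a median range of 0.63 for the members and 0.37 for all on the log2 scale. The 4 were Gjb1 (1.38), Ugt8a (1.20), 99048_g_at of Mobp (1.05) and Mog (1.01). In the limma fits of the 2-, 4- and 6-hour samples 0 members had an adjusted p under 0.05, as did 0% of all probe sets. At an unadjusted p under 0.05 there were 0, 1 and 1 members, against 2.64%, 2.76% and 2.27%. Each of those fits takes its spread from 3 samples that include the 1-hour one. For 99048_g_at the SE was 0.88, 0.97 and 0.82 in them, against 0.38 at 1 hour. A lack of calls there thus does not show that those samples agree. The counts of this paragraph describe single samples, several members read the same transcript, and Gjb1 is among the members only through its 6-hour value. The members were also chosen with earlier results of these data known, so the shares are a description.

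Over time, 0 of 12 members had a trend with an adjusted p under 0.05 in the limma fit of a linear change from 1 to 6 hours, and 0% of all tested probe sets did. At an unadjusted p under 0.05 there were 5 of 12, against 6.24%. They were 102405_at of Mag, with a fitted change of 1.40 on the log2 scale (SE 0.34, adjusted p = 0.74), Gjb1 (1.49, SE 0.62), 99047_at (1.35, SE 0.53) and 99046_at (0.92, SE 0.38) of Mobp, and 96311_at of Mbp (0.42, SE 0.18). Gjb1 passed the filter only through its 6-hour value, the end point of the trend, so its rise was favoured by the filter. The coefficient was positive for 10 of 12, against 47.2%, and negative for 96310_at of Mbp (-0.31) and for Mog (-0.13). The largest was that of 99048_g_at, 1.80 (SE 0.80), whose adjusted p was 0.74 with all samples and 0.0326 without the 2-hour sample. Without the 1-hour sample its trend was 0.18, with an adjusted p of 1. In that fit the trend was also smaller for 102405_at of Mag (0.80), 99047_at (0.32), 99046_at (0.26) and 96311_at of Mbp (0.27), and it was 1.74 for Gjb1. A low first sample and a rise with time cannot be told apart with 1 sample at each time.

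The ratio of 2 probe sets of the same gene removes what both share in a sample, so its range over the samples measures their disagreement. For the pair 100536_at and 99048_g_at of Mobp, the log2 ratio was 5.03, 2.23, 3.26 and 2.46 in the order of hours. This is a range of 2.80 on the log2 scale, or 6.96-fold, and 97.9% of same-gene pairs had a smaller one. For 100536_at and 99047_at the range was 1.95 (3.86-fold), and for 100536_at and 99046_at 1.32. The Mag pair had 1.21, and the Mbp pair 0.71. Among the other 3 Mobp sets the ranges were 0.66, 0.85 and 1.47. In all, 5 of 8 member pairs had a range of 1 or more, against 38.7% of 1213 same-gene pairs of 920 genes, with a median of 1.27 for the members and 0.84 for all pairs. Of the 8 pairs 6 are of Mobp and share probe sets, so they are not independent.

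The disagreement lay mainly in the 1-hour sample. Without it 1 of 8 member pairs had a range of 1 or more, against 19% of all pairs, and the median range was 0.53 for the members and 0.57 for all. The remaining pair was 100536_at with 99048_g_at, at 1.03. In a limma fit of the log2 ratios of all same-gene pairs, 0 member pairs had an adjusted p under 0.05 at 1 hour, as did 0% of all pairs, and 5 of 8 had an unadjusted p under 0.05, against 15.2%. The smallest adjusted p was 0.101, for 100536_at with 99048_g_at, whose ratio was 2.38 higher at 1 hour (SE 0.48). For the time trend of the ratio 0 member pairs passed at an adjusted or an unadjusted p under 0.05, against 0% and 6.35%.

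**Figure D3:**
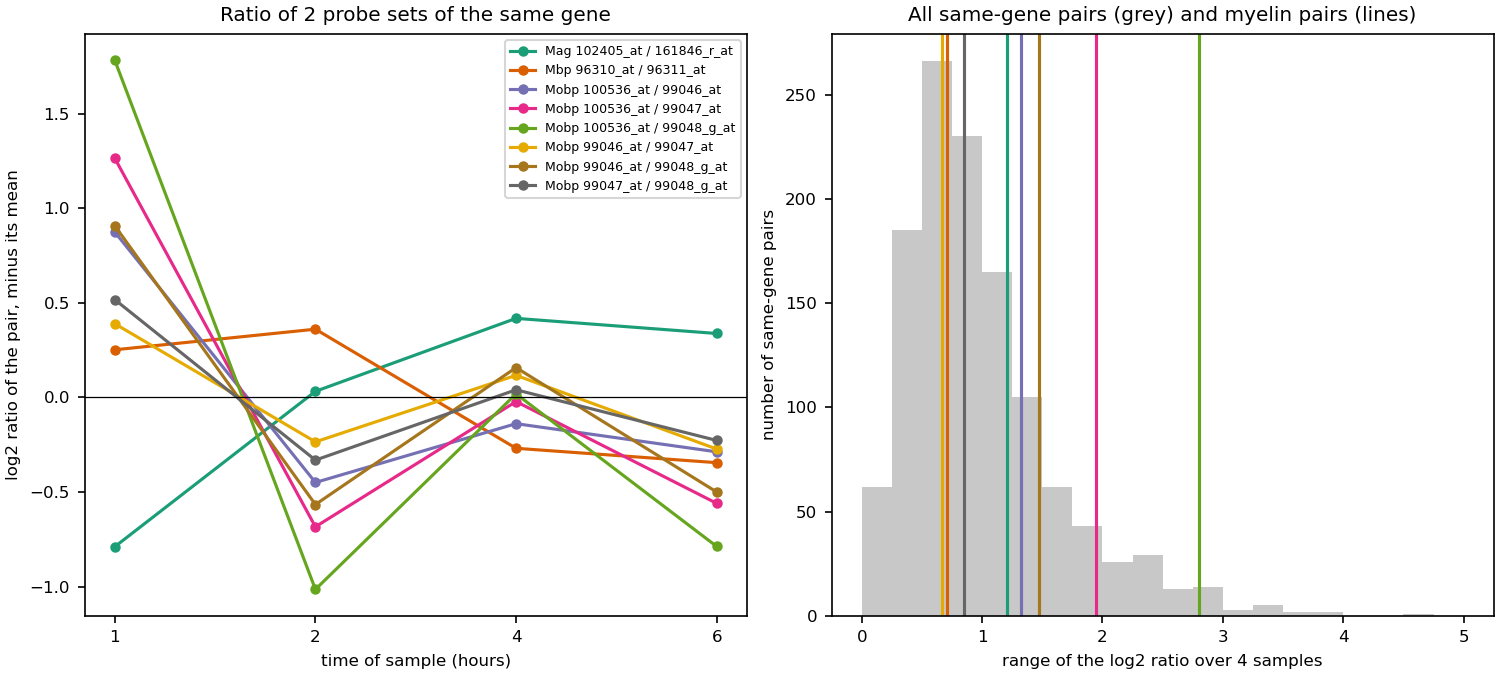
Left, log2 ratio of each pair of tested probe sets of the same gene in the 4 samples, minus its mean over them. Right, the range of this ratio over the 4 samples for all 1213 same-gene pairs (grey bars) and for the 8 member pairs (lines in the colours of the left panel). The 3 Mobp pairs with 100536_at were all highest at 1 hour, and the widest had a range of 2.80.

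The choice of probe set changed how a gene would be read. Through the brightest probe set of each gene, 1 of 7 genes (Mag) was 2-fold or more lower in the 1-hour sample. Through any probe set it was 3 of 7 (Mobp, Mag and Cldn11, the last by its untested set), and through the mean of all probe sets 2 of 7, Mobp at -1.17 and Cldn11 at -1.07. The Cldn11 mean includes that untested set, and its tested set alone gave -0.93, less than 2-fold. For Mobp the brightest set gave 0.14, with the opposite sign of the mean. Over the 5685 named genes with a tested probe set, the shares read in these ways were 3.83%, 6.28% and 3.39%. Reading through any probe set raises the count for genes with several, and over the 1698 genes with 2 or more it gave 12.1%.

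Other genes of oligodendrocytes and myelin were taken from a list, also drawn up with earlier results of these data known. It held 53 symbols, with Sept4 and Septin4 for the same gene, chosen for their place in the lineage, in lipid synthesis or in the sheath. Of these genes 31 had a probe set and 27 were tested, each through its brightest. In the 1-hour sample 17 were higher and 10 lower, against 54.7% of all tested probe sets higher, with a median log2 difference of 0.12 against 0.05 for all. In the 6-hour sample 12 were higher and 15 lower, against 50% higher, with a median of -0.07 against 0.00 for all. The 6-hour sample was the highest of the 4 for 9 of 27, against 20.8% of all, and the lowest for 7, against 24%. The 1-hour sample was the highest for 12, against 35.1%, and the lowest for 4, against 29.2%. Without the 1-hour sample the 6-hour median was -0.00035. In the limma fits of each of the 4 samples 0 of 27 had an adjusted p under 0.05. At an unadjusted p under 0.05 there were 5 of 27 at 1 hour, against 15.8% of all tested probe sets, and 0 in each of the others. For the time trend 0 passed, and 2 of 27 had an unadjusted p under 0.05, against 6.24%. One, Cers2, had a range of 2-fold or more, against 17.9% of all tested probe sets and 8 of the 12 tested members. Those members were counted over every tested probe set, and the companions only through the brightest of each gene. Through the brightest set, Mag (1.55), Mog (1.06), Cldn11 (1.23), Gjb1 (1.535) and Ugt8a (1.20) had such a range on the log2 scale. Mobp (0.37) and Mbp (0.43) did not. Gjb1 is in both of these member counts, and it passed the filter only through its 6-hour value, so its range had to be wide.

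The companions with the widest ranges were of several kinds. Cers2, the ceramide synthase that supplies very long chain lipids to myelin, had 339, 181, 153 and 160 in the order of hours, higher at 1 hour by 1.08 (SD of the other 3, 0.09, adjusted p = 0.165). Pmp22, a protein of peripheral myelin, had 207, 114, 184 and 173. Pdgfra, the growth factor receptor of oligodendrocyte progenitors, had 679, 1212, 1242 and 1093. The 1-hour sample was thus the highest for Cers2 and Pmp22 and the lowest for Pdgfra (-0.77, adjusted p = 0.0838). Qk, an RNA-binding protein that regulates splicing of myelin transcripts, had 1446, 1232, 818 and 1075. Apod, a lipid carrier, had 1393, 1076, 1163 and 813, and Jam3, a junctional adhesion molecule, 234, 285, 286 and 167. Qk and Apod were thus also highest at 1 hour, as were Cers2 and Pmp22, and their lowest samples were the 4-hour and the 6-hour one. Jam3 was lowest at 6 hours.

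**Figure D4:**
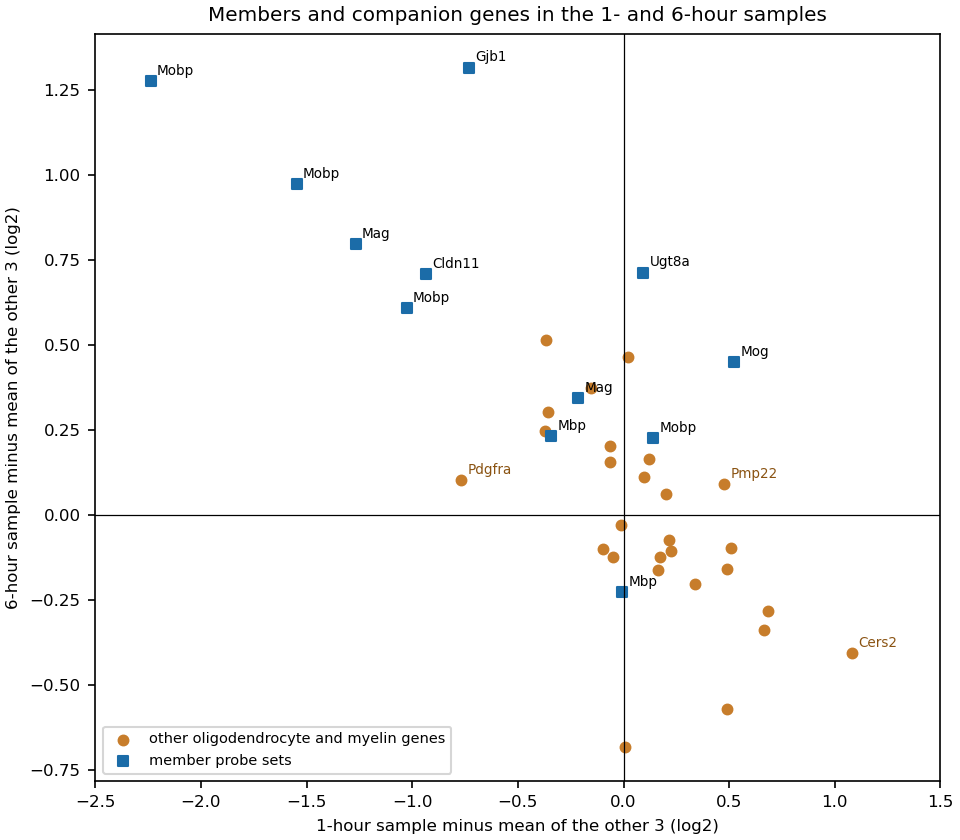
Log2 difference of the 1-hour sample (horizontal) against that of the 6-hour sample (vertical), each from the mean of the other 3, for the 12 tested member probe sets (squares, with gene names) and 27 other oligodendrocyte and myelin genes (circles, the 3 with the widest range named). Each axis uses the other axis's sample in its mean, so a slope down to the right is partly built in. The lowest companion at 1 hour was Pdgfra (-0.77), while 100044_at of Cldn11, 102405_at of Mag and 3 Mobp sets lay between -0.93 and -2.24.

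The probe sets whose profile over the 4 samples lay closest to the median member profile were taken by distance alone. That profile was -0.41, 0.00, -0.07 and 0.48 on the log2 scale around its mean, in the order of hours. By root mean square difference over 4 samples, the nearest were Glod4 (0.04), G6pc3 (0.05), Setd6 (0.06), Pias3 (0.07) and Gadd45b (0.07). The member nearest to it was 161846_r_at of Mag, at 0.17, and the furthest 99048_g_at of Mobp, at 0.79. The search covered the 6742 tested probe sets with 1 symbol, apart from the members, and its result is a description.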

How the data were processed

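The members and gene lists were chosen with earlier results of these data known. The deposited values are array intensities on a linear scale, 1 per probe set, and the authors had scaled the arrays alike: without the top and bottom 2% of values, every column averaged 500.3. The array software is not given in the sources used here. No detection calls entered the tests. Probe sets were named from the platform annotation. Of 12422 that are not controls, 10833 had 1 symbol, 396 had several and 1193 had none, and symbols were updated by gene identifier to the RefSeq table of GRCm38.p6 (10817 matched). After quantile normalization, signals below 35.1, the 20th percentile, were raised to it before log2 was taken. Probe sets with a mean at or above the 40th percentile (a signal of 104.6) were tested, which left 7453, with 12 of the 13 members among them. Fits used limma 3.58.1 in R 4.3.3 (lmFit, eBayes with an intensity trend, but without one for ratios), two-sided, with Benjamini-Hochberg adjustment over all tested features and 2 residual degrees of freedom, and were tested on simulated data. The genes named are all members, the 6 companions with the widest range and the 5 nearest profiles. Promoter windows and figures were made in Python 3.11.15 with matplotlib 3.10.9. Alternatives were other scalings, another floor, no filter, another variance prior, a pseudocount of 16 and leaving out each sample.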

Additional observations from a re-analysis of the deposited data

Results flagged for a closer look

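In 1 of 26 sets of 4 values examined (the tested members, the 6 named companions and the member pair ratios), 1 sample lay far from the other 3. For Cers2 the gap from the 1-hour sample to the nearest other, divided by the whole range, was 0.846. Chance marks about 1 in 20 such sets when they are chosen without regard to their values. The 6 companions were chosen for a wide range and the pair ratios share probe sets, so that rate need not hold here.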

How the results depend on the processing

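No paired analysis was possible because all samples form 1 group and no replicate numbers are shared between groups. The number of members with an adjusted p under 0.05 at 1 hour, 2 in the fit reported, was 4 on the values as deposited and with equal medians, and 0 with the floor at the 40th percentile, with no filter on low values and with no intensity trend in the prior. Over all tested probe sets the fit reported called 175, and these settings called 272, 222, 3, 365 and 0 in the same order. Each total was out of 7453, except 12422 with no filter. Leaving out the 2-, 4- or 6-hour sample gave 1, 3 and 2 members, against 87, 242 and 108 of all. The count of members with a time trend was 0 to 1 when 1 sample was left out. The 1 arose without the 2-hour sample, where 3 of all 7453 probe sets were called. The count of pairs with a ratio range of 1 or more, 5, was 1 to 5, and the 1 arose without the 1-hour sample. In the fit reported 1 member was 2-fold or more higher at 2 hours, against 1.27% of all tested probe sets, and the alternatives gave 0 to 2. At 4 hours 0 members were 2-fold or more lower, against 1.93% of all, and the alternatives gave 0 to 1. Members 2-fold or more higher at 6 hours were 2, against 1.49% of all, and the alternatives gave 1 to 4. At 6 hours the higher floor, the 40th percentile, gave 1. The companion median at 1 hour was 0.056 on the values as deposited. Small differences changed sign when 1 sample was left out. At 1 hour 96310_at of Mbp ran from -0.097 to 0.14 and Ugt8a from -0.22 to 0.37, and raising the floor to the 40th percentile gave -0.051 for Ugt8a. The time trends ran from -0.22 to 0.45 for 100536_at of Mobp, -1.72 to 0.50 for Mog and -1.31 to 0.61 for Ugt8a. Where not named, the cause was not tested. Of the members, 161529_r_at of Cldn11 was closest to the floor (37.8 at 1 hour), where differences are least certain.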
